A study of Homo sapiens with 9 samples.

Results

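The ribosomal RNA transcription unit was followed through its 45S precursor (RNA45SN5) and the 3 RNAs cut from it, 18S (RNA18SN5), 5.8S (RNA5-8SN5) and 28S (RNA28SN5). These 4 entries were chosen by gene symbol from 26625 genes, each gene being represented by its transcript entry with most reads. The series tested oligo(dT) primers in CLT-seq, a ligation-based library method that primes reverse transcription of total RNA at poly(A) and joins a second adaptor to the cDNA with a splint. Of its 9 libraries, the 7 with gene counts were used. Wild-type HEK293T, a transformed human embryonic kidney line, was primed with unanchored T12, T18 or T30 and with anchored T18V, T18VN or T18VNN, and wild-type A549, a human lung carcinoma line, with T12 alone. All 7 started from total RNA of cultured cells grown in 10% FBS, and the labels name neither a treatment nor a step that removes rRNA.

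RNA polymerase I transcribes the 45S precursor in the nucleolus from repeated gene copies. External spacers at both ends and 2 internal spacers are then removed, which leaves 18S for the small ribosomal subunit and 5.8S and 28S for the large one. The mature rRNAs make up most of the RNA of a cell and carry no long poly(A) tail. Short A additions are known on rRNA fragments and processing intermediates that the nuclear exosome degrades. An oligo(dT) primer can also anneal to A-rich stretches inside an RNA.

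The libraries differed in depth and, for A549, in cell line, while the primers differ at their 3′ end alone, as the design text lists them. The unanchored primers are shown here. Each holds the same 50-nt adaptor in lower case, followed by the T run in capitals.
T12: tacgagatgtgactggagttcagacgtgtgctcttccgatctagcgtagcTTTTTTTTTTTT
T18: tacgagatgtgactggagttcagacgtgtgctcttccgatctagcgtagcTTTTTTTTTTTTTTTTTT
T30: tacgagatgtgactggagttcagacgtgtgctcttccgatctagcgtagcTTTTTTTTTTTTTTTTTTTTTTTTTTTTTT
The anchored primers are the T18 primer with further bases at the 3′ end: 1 in T18V (V, any base but T), 2 in T18VN and 3 in T18VNN (N, any base). An anchor is meant to place the primer at the first A of a tail. The text lists the primer with 18 T and the anchor VN under the name T12VN, and it was taken as that of the sample titled T18VN.

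Library totals were 7491993 to 25578543 reads, and 11.7% to 37.5% of a library total was counted on genes. The share on genes was 11.7% to 20.3% with the 3 unanchored HEK293T primers and 27.7% to 37.5% with the 3 anchored ones, so a level relative to the library total and one relative to gene reads can point in opposite directions. Both are given below, as RPM (reads per 1000000 reads of the library total) and as reads per 1000000 gene reads. Each primer had 1 library, so the error of a primer class is that over its 3 primers and says nothing of cultures. The anchored primers all carry 18 T, and the unanchored ones 12, 18 or 30. A difference between the classes thus cannot be told apart from one of T length. Only the T18 library matches the anchored ones in length. The labels name no sequencing batch. Of 12 genes written down as A549 markers, all 12 were at least 2-fold higher in A549 than in HEK293T T12, and of the 6 HEK293T markers with enough reads all 6 were at least 2-fold lower, where 25.8% of all genes were that much higher and 35.7% that much lower. These markers were listed with results of the same libraries known, so the counts are a description of the labelled lines and no independent check of them.

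The 4 entries lie on 1 unplaced contig of hg19, chrUn_gl000220, on the plus strand. The 45S entry spans 105424 to 118780 (13357 nt). The 18S entry spans 109078 to 110946 (1869 nt), 5.8S spans 112025 to 112180 (156 nt) and 28S spans 113348 to 118417 (5070 nt). All 3 products sit inside the 45S entry, so every 18S, 5.8S or 28S read is counted a further time for 45S. What remains of the 45S entry is 6262 nt of spacer, 46.9% of its length: a 5′ external spacer of 3654 nt, internal spacers of 1078 and 1167 nt and a 3′ external spacer of 363 nt. Reads on the spacers were taken as the 45S reads minus those of the 3 products, which undercounts any spacer read that runs into a mature RNA. Human cells hold many near-identical copies of this unit. GENCODE release 29 (GRCh38) lists 2 copies of 5.8S on this contig alone, and the 16 entries searched for under the symbols of other copies were not among the genes counted here. How the aligned reads with several matches were handled is not stated in the sources used here, so the levels below are those of 1 annotated copy and not of cellular rRNA. A long noncoding RNA entry, LOC100507412, spans the unit (97129 to 126696) and had 32 reads in A549 and 147 to 361 in HEK293T; whether any of them are also counted for the unit was not tested.

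The reads counted on this annotated unit were few beside the library totals. In HEK293T the 45S entry was counted 6327 times with T12, 9099 with T18 and 4347 with T30, then 2802 with T18V, 6075 with T18VN and 7022 with T18VNN; A549 gave 4374. As a share of the library total this was 0.0334%, 0.0356%, 0.0229%, 0.0374%, 0.0381%, 0.0542% and 0.0393% in the same order. The lowest share was that of T30 and the highest that of T18VNN, 2.36-fold apart. By read number the 45S entry ranked 46th to 132nd of all genes in the HEK293T libraries and 26th in A549. Because the entries share reads, its rank and those of its products are not independent.

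Nearly all reads of the unit fell in 18S and 28S. In HEK293T, 18S took 67.0% of the 45S reads with T12, 67.7% with T18 and 70.4% with T30, then 67.4% with T18V, 58.04% with T18VN and 47.4% with T18VNN. 28S took 32.6%, 32.1%, 29.5%, 32.4%, 41.7% and 52.3% in the same order. T12, T18 and T18V thus lay close together, T30 lay somewhat below them in 28S, and T18VN and T18VNN stood further apart with more 28S. The A549 library had 72.6% in 18S and 26.6% in 28S, the lowest 28S share of the 7.

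5.8S, which pairs with 28S in the large subunit, was barely detected. It had 0 reads with T12, 10 with T18 and 0 with T30, then 1 with T18V, 2 with T18VN, 1 with T18VNN and 1 in A549. A count of 0 allows up to 3 reads, or 0.159 RPM with T12 and 0.158 with T30. Apart from T18, every library was within 3 reads. Per kilobase of its length, 5.8S reached an RPM of 2.51 with T18 and 0.494 to 0.856 in the other 4 libraries with a read, against 13.3 to 55.9 for 28S in the 7 libraries. 5.8S is the shortest of the 3 mature RNAs, and whether short fragments were lost was not tested.

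The spacers gave few reads. Together they had 25 reads with T12, 5 with T18 and 1 with T30, then 4 with T18V, 12 with T18VN and 22 with T18VNN in HEK293T, and 34 in A549. Their share of the 45S reads ran from 0.0230% with T30 (95% Wilson interval 0.00406 to 0.130) to 0.395% with T12 (0.268 to 0.583) in HEK293T, and was 0.777% in A549 (0.557 to 1.08). Per kilobase, 18S and 28S together were 115-fold above the spacers in A549 and 227-fold to 1640-fold above them in the 5 HEK293T libraries with more than 3 spacer reads. The map of the unit plots these levels by part. T12 and T18VNN had the highest spacer RPM in HEK293T (1.32 and 1.70), 1 primer of each class. The class means were 0.523 ± 0.695 (SD, n = 3) for the unanchored and 0.994 ± 0.618 (SD, n = 3) for the anchored primers, and they differed by less than the spread (two-sided exact permutation p = 0.5). Their difference of 0.471 RPM was 0.120 without T18VNN and 0.870 without T12, and it also fell past 1.5 times without T18 (0.307) or T30 (0.236).

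**Figure D1:**
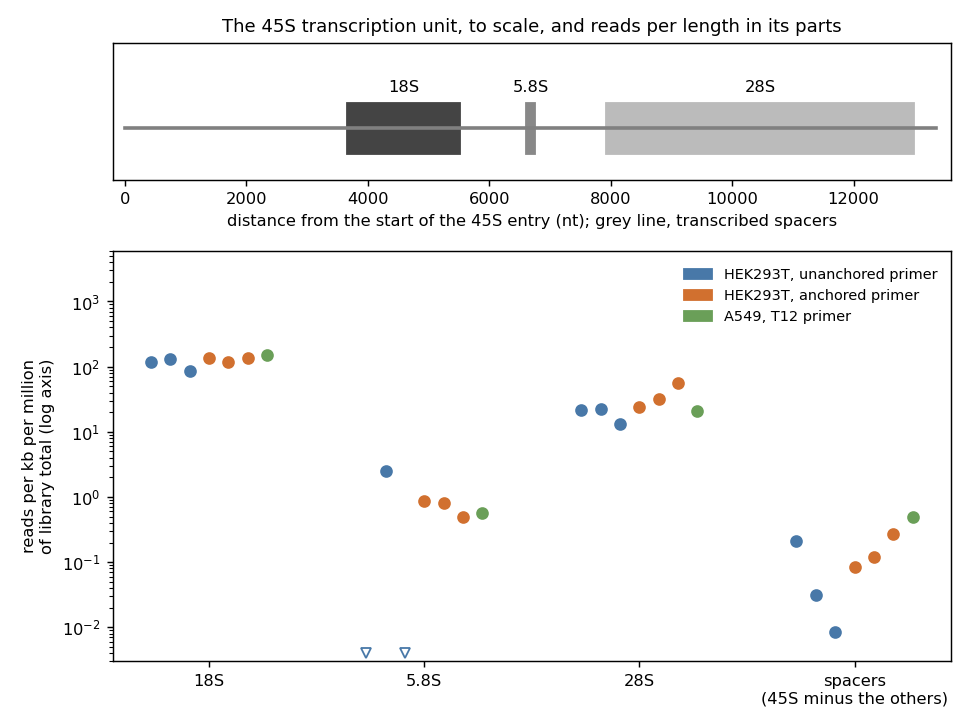
The top panel draws the 45S unit to scale, with distance from its start in nt and the 18S, 5.8S and 28S RNAs as boxes. The lower panel plots RPM per kb on a log axis, 1 point per library (T12, T18, T30, T18V, T18VN, T18VNN and A549 from left to right in each part); open triangles at the bottom mark the 2 libraries with no 5.8S read. 18S lies highest in every library and the spacers lie below 28S in every library.

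18S, the RNA of the small subunit, had 4240 reads with T12, 6159 with T18 and 3062 with T30, then 1888 with T18V, 3526 with T18VN and 3325 with T18VNN. In RPM these were 224, 241, 161, 252, 221 and 256. The T30 library lay below the rest, while the other 5 covered 221 to 256 with no order by class. The deposited FPKM, which divides by length, was 120, 129, 86.4, 135, 118 and 137 in the same order, and by FPKM 18S ranked 91st to 226th of all genes in HEK293T. 18S had 2.46-fold (T18VNN) to 6.47-fold (T30) more reads per kilobase than 28S in HEK293T and 7.39-fold more in A549, although the cell makes the mature RNAs in equal numbers from 1 precursor. The class means were 209 ± 41.9 (SD, n = 3) RPM for the unanchored and 243 ± 19.3 (SD, n = 3) for the anchored primers. The groups overlapped, and the exact permutation test gave p = 0.3 (0.45 after Benjamini-Hochberg (BH) adjustment over the 9 measures tested here).

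28S, the large RNA of the large subunit, had 2062 reads with T12, 2925 with T18 and 1284 with T30, then 909 with T18V, 2535 with T18VN and 3674 with T18VNN. In RPM these were 109, 114, 67.7, 121, 159 and 283. The 3 anchored libraries were the highest, in the order of their number of anchor bases, and T18VNN was 4.19-fold above T30. The means were 97.0 ± 25.5 (SD, n = 3) for the unanchored and 188 ± 84.8 (SD, n = 3) for the anchored primers, 1.94-fold higher, and the groups did not overlap. The nearest libraries across the groups, T18 (114) and T18V (121), had overlapping counting intervals. The two-sided exact permutation p was 0.1, the smallest that 3 against 3 allows (BH-adjusted 0.36). The same order is common here: of 10887 genes tested, 46.7% had all 3 anchored libraries above all 3 unanchored ones on this scale, and 0.919% had the opposite order, so this separation of 28S is shared with much of the transcriptome. The 45S entry, which contains 28S, was separated in the same way, at 306 ± 67.8 against 432 ± 94.9 RPM (SD, n = 3 each; exact permutation p = 0.1, BH-adjusted 0.36). There too the counting intervals of T18 and T18V overlapped. Leaving out T18VNN lowered the 28S difference from 90.9 to 43.1 RPM and the 45S difference from 126 to 70.9, and leaving out T30 lowered the 18S difference from 34.4 to 10.7.

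**Figure D2:**
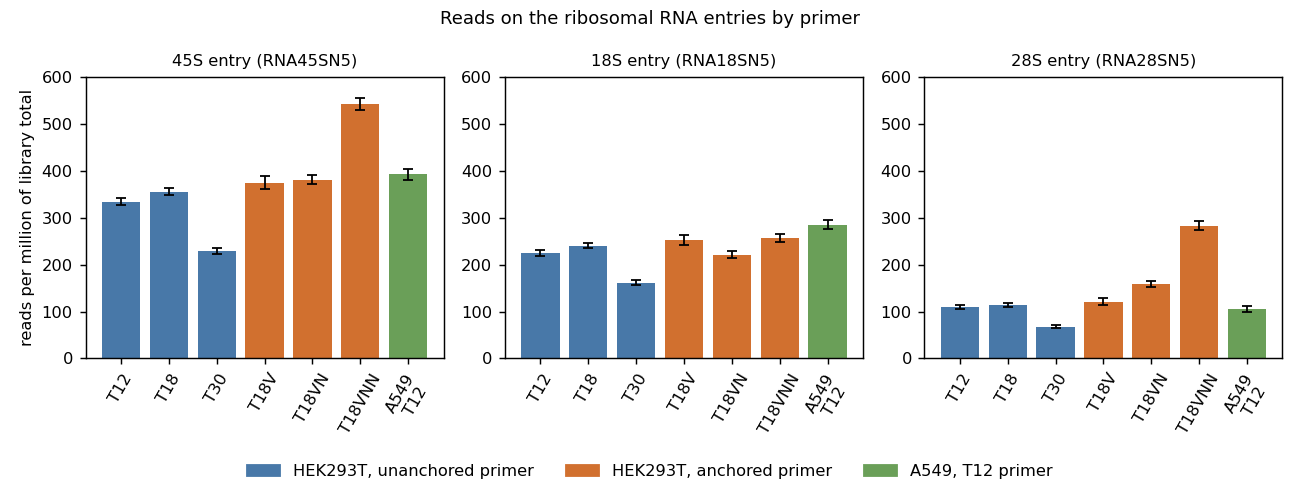
Bars give RPM for the 45S, 18S and 28S entries in each library, and error bars are 95% Wilson intervals, which cover counting error only. 18S is lowest with T30 and lies between 221 and 256 in the other HEK293T libraries, while 28S rises over T18V, T18VN and T18VNN to 283.

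Relative to gene reads the classes stood otherwise. Per 1000000 gene reads, 18S had 1298 with T12, 1184 with T18 and 1382 with T30, against 672 with T18V, 787 with T18VN and 925 with T18VNN. All 3 anchored libraries lay below the unanchored ones (1288 ± 99.2 against 794 ± 127, SD, n = 3 each; exact permutation p = 0.1, the smallest possible), which 6.8% of the genes tested also showed. 28S had 631, 562, 579, 323, 566 and 1022 from T12 to T18VNN in the same order of primers, so the classes overlapped (591 ± 35.9 against 637 ± 354, SD, n = 3 each; exact permutation p = 0.9). On this scale T18V was the lowest library for both RNAs and T18VNN the highest for 28S.

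The fit across all genes gave no call for any rRNA entry. With edgeR's quasi-likelihood test and TMM scaling (trimmed mean of M values, which centres the bulk of genes), the log2 fold change of anchored over unanchored primers was -0.57 for 45S (SE 0.29, adjusted p = 0.391), -0.87 for 18S (SE 0.26, adjusted p = 0.137) and -0.07 for 28S (SE 0.38, adjusted p = 0.96). Of all 10887 genes, 147 (1.35%) had an adjusted p under 0.05, 0.781% higher and 0.569% lower with an anchor, and 1694 had an unadjusted p under 0.05. The 28S value turned to 0.22 without T18V and 0.0045 without T18VN, and was -0.61 without T18VNN. 5.8S did not pass the filter on low counts and was not tested. Scaled to the library totals instead, the same edgeR test put all 3 on the higher side, at 0.50 for 45S (adjusted p = 0.356), 0.22 for 18S (adjusted p = 0.687) and 0.95 for 28S (adjusted p = 0.121). That scaling moved the median of all genes to 1.07 and called 20.9% of them, 20.4% higher and 0.478% lower. A change of scaling moves all genes by nearly the same amount. Values relative to the median gene must therefore stay close under both scalings and are no check of the result. They were -0.56 and -0.58 for 45S, -0.87 and -0.85 for 18S, and -0.06 and -0.12 for 28S. DESeq2 called 18S, with a log2 fold change of -0.92 (adjusted p = 0.0461), where it called 4.71% of genes, 2.27% higher and 2.44% lower. The plot of fold changes shows the shift between the scalings.

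**Figure D3:**
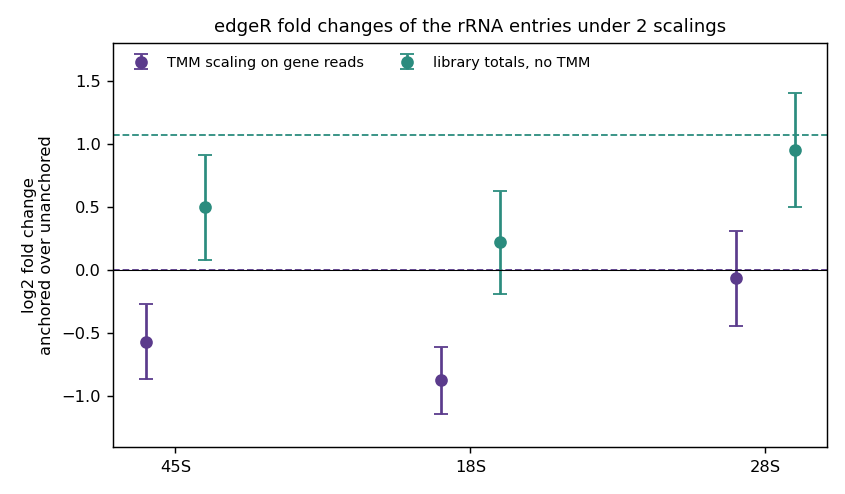
Points are edgeR log2 fold changes of anchored over unanchored HEK293T primers with standard errors, for the 45S, 18S and 28S entries, and dashed lines are the median of all 10887 genes under the same scaling. With TMM the 3 points lie at -0.57, -0.87 and -0.07 around a median near 0, and with library totals at 0.50, 0.22 and 0.95 under a median of 1.07.

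The ratio of 28S to 18S reads needs no scaling, since both come from 1 library. It was 0.486 with T12 (95% Wilson-based interval 0.461 to 0.513), 0.475 with T18 (0.454 to 0.496), 0.419 with T30 (0.393 to 0.448) and 0.481 with T18V (0.445 to 0.521). It was 0.719 with T18VN (0.683 to 0.757) and 1.10 with T18VNN (1.05 to 1.16). T18VNN was the only library of the 7 in which 28S had more reads than 18S, and even there 28S had 0.407 of the reads of 18S per kilobase. The intervals of T18VN and T18VNN met neither each other nor those of the other 4 HEK293T primers. That of T30 met the interval of T18V but lay below those of T12 and T18. They cover counting error within 1 library each, and no second library of any primer shows how far the ratio moves between cultures. By class the ratio was 0.460 ± 0.0358 (SD, n = 3) for unanchored and 0.768 ± 0.315 (SD, n = 3) for anchored primers. T18V lay inside the unanchored range, so the classes overlapped (exact permutation p = 0.2, BH-adjusted 0.36). Without T18VNN the difference between the classes fell from 0.308 to 0.140.

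**Figure D4:**
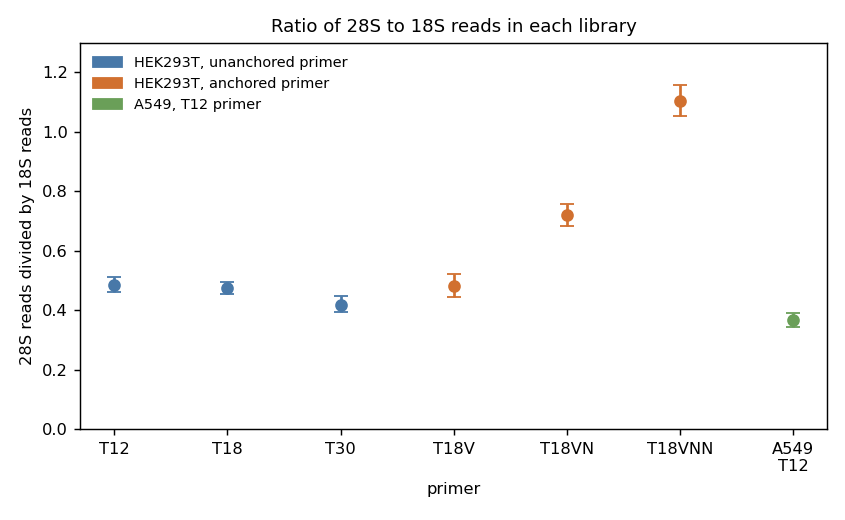
Points give the 28S reads divided by the 18S reads in each library, with 95% intervals that cover counting error only. The 3 unanchored HEK293T primers and T18V lie between 0.419 and 0.486, T18VN at 0.719, T18VNN at 1.10 and A549 with T12 at 0.367.

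T12, T18 and T30 differ only in the length of the T run. From T12 to T18 the 18S share was 1.07-fold higher (95% counting interval 1.03 to 1.12) and the 28S share 1.05-fold (0.991 to 1.11). From T18 to T30 the 18S share was 0.670 of its level (0.642 to 0.700) and the 28S share 0.592 (0.554 to 0.632). T30 was the lowest of the 6 HEK293T libraries for both, as it was for 59.8% of all genes tested, and relative to gene reads it was the highest for 18S.

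The other step adds anchor bases to the run of 18 T. From T18 to T18V the 18S share was 1.05-fold (95% counting interval 0.993 to 1.10) and the 28S share 1.06-fold (0.984 to 1.14), both within counting error. From T18V to T18VN, 18S was 0.877 of its level (0.829 to 0.928) and 28S was 1.31-fold higher (1.21 to 1.41). From T18VN to T18VNN, 18S was 1.16-fold higher (1.11 to 1.22) and 28S 1.78-fold (1.70 to 1.88). Over the whole series from T18 to T18VNN, 28S was 2.48-fold higher (2.36 to 2.60) and 18S 1.07-fold (1.02 to 1.11); 33.4% of all genes tested were at least 2-fold higher in T18VNN. A rise from T18V through T18VN to T18VNN, as for 28S, was shown by 9.82% of genes in RPM and by 17% relative to gene reads. Per 1000000 gene reads, 18S went the other way, from 1184 with T18 to 925 with T18VNN, and 28S was lower with T18V (323) than with T18 (562) before it reached 1022 with T18VNN. A rise at each step from T18 through T18VNN was shown by 5.33% of all genes tested, and T18VNN was the highest of the 6 HEK293T libraries for 17.5% of them.

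In A549 the T12 primer gave 3174 reads of 18S and 1165 of 28S. Against HEK293T with the same primer, 18S was 1.27-fold higher in RPM (285 against 224; 95% counting interval of the ratio 1.22 to 1.33) and lay above all 6 HEK293T libraries. 28S was 0.961 of the HEK293T level (105 against 109; 0.893 to 1.03), with 5 of the 6 HEK293T libraries above it. The spacers were 2.31-fold higher (34 against 25 reads; 1.34 to 4.04), and the ratio of 28S to 18S was 0.367 (0.343 to 0.393), below the whole HEK293T range. Relative to gene reads 18S was 1.63-fold and 28S 1.23-fold higher, so the direction for 28S depends on the scale. Neither 18S nor 28S reached 2-fold, a size that 61.5% of 10144 genes passed in this pair. With 1 library per cell line there is no replicate check, and a difference between lines cannot be told apart from one between libraries.

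In order of RPM, the 18S neighbours T18VN and T12, T18 and T18V, and T18V and T18VNN had overlapping counting intervals, and T30 below and A549 above were each set apart. For 28S, A549, T12, T18 and T18V followed each other with overlapping intervals, T30 lay below them, and T18VN and T18VNN lay above. For 45S the steps from T18 to T18V, T18V to T18VN and T18VN to A549 were each within overlapping intervals, and T30, T12 and T18VNN stood apart from their neighbours.

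5S, the fourth rRNA, is made by RNA polymerase III from separate genes on chromosome 1 and was measured through 17 near-identical entries (RNA5S1 to RNA5S17), among which reads cannot be assigned. Whether a read was counted at several entries was not tested, and a sum over the entries repeats any such read. Added over the entries, 5S had an RPM of 9.14 with T12, 12.1 with T18 and 13.7 with T30, then 15.6 with T18V, 38.4 with T18VN and 23.2 with T18VNN, and 6.74 in A549. T18VN was thus the highest for 5S, not T18VNN. All 17 entries were tested and none was called by edgeR with TMM, beside 1.35% of all genes. Among the entries with most reads, RNA5S7 had 0.709 ± 0.168 and 2.05 ± 0.573 RPM (SD, n = 3 each) for unanchored and anchored primers (log2 fold change 0.43, SE 0.75, edgeR adjusted p = 0.847). These values rest on 10 to 43 reads per HEK293T library. As reads cannot be assigned among the entries, they are not a level of this gene alone.

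Other abundant RNAs without a long poly(A) tail were compared primer by primer. Of 16 on the list, 10 were tested and none was called by edgeR with TMM, beside 1.35% of all genes. Their median log2 fold change was -0.34, against -0.0018 for all genes tested. RNU4-1, a gene of the U4 spliceosomal RNA, had an RPM of 1.85 with T12, 1.56 with T18 and 0.158 with T30, then 3.07 with T18V, 4.95 with T18VN and 175 with T18VNN (log2 fold change 4.84, SE 1.38, edgeR adjusted p = 0.115). RNU4-2 and RN7SK, named after their values were seen, had 144 and 112 RPM with T18VNN against 0.369 to 2.95 and 1.37 to 4.83 with the other 5 primers. RN7SK is the 7SK RNA that holds the elongation factor P-TEFb inactive. The Y RNAs RNY1, RNY3 and RNY5, which bind the Ro protein, did not share this: with T18VNN they had 25.1, 92.3 and 44.7 RPM, inside their ranges over the other 5 primers. T18VNN was also the highest of the 6 libraries for 18S and 45S, for RNU5A-1 (4.55 RPM) and for RNU6-1, which had 100 reads there and 0 with the other 5 primers. It was the lowest for RN7SL2, a 7SL RNA of the signal recognition particle (1.39 RPM, against 1.63 to 5.43). These last 3 were named after their values were seen.

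**Figure D5:**
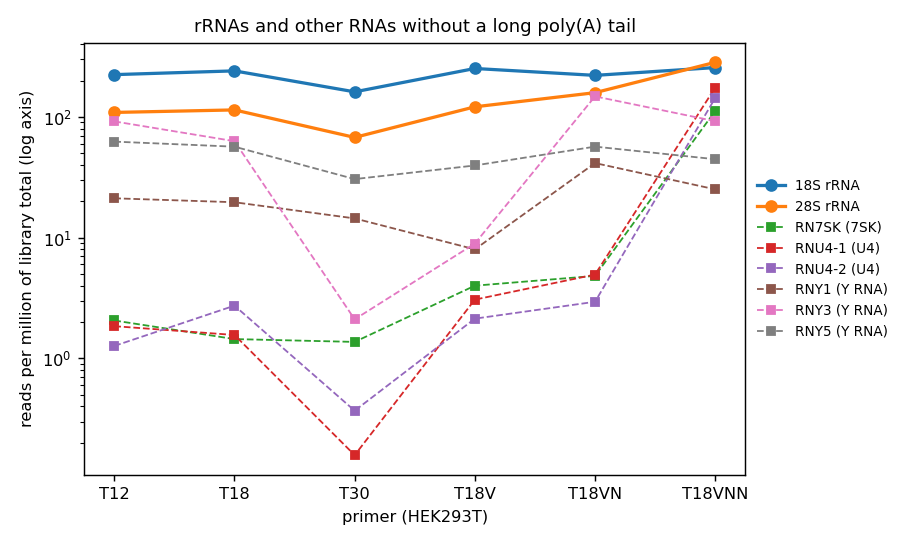
Lines give RPM on a log axis for 18S and 28S rRNA and for 6 other RNAs without a long poly(A) tail over the 6 HEK293T primers. RNU4-1, RNU4-2 and RN7SK stand at 112 to 175 with T18VNN and at most 4.95 elsewhere, while 28S goes from 121 to 283 between T18V and T18VNN and RNY5 stays between 30.6 and 62.5.

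The genes that make, process and degrade rRNA were read from 3 lists. Of 21 genes of the RNA polymerase I machinery, 20 were tested and none was called by edgeR with TMM, beside 1.35% of all genes. Their median log2 fold change was 0.30, against -0.0018 for all genes. POLR2F, a subunit shared by the nuclear polymerases, had 589 ± 156 and 698 ± 257 RPM (SD, n = 3 each) for unanchored and anchored primers, and RRN3, which recruits polymerase I to the promoter, had 18.6 ± 10.7 and 51.5 ± 18.9. POLR2E, another shared subunit, had 19.9 ± 3.23 and 91.3 ± 40.3, and TAF1C, part of the promoter factor SL1, had 26.7 ± 11.7 and 39.2 ± 4.65. With TMM the log2 fold changes were -0.88 for POLR2F, 0.43 for RRN3, 1.03 for POLR2E and -0.50 for TAF1C, so POLR2F and TAF1C changed direction between the scales. Reads of POLR2F, POLR2E and TAF1C can be shared with overlapping genes. In A549, 10 of 19 genes of this list with at least 20 reads in the pair were at least 2-fold lower than in HEK293T T12 and 1 was at least 2-fold higher, where 35.7% and 25.8% of all genes were.

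Of 41 pre-rRNA processing and modification factors, 40 were tested and none was called by edgeR with TMM (median 0.14), beside 1.35% of all genes. NCL, the nucleolar protein nucleolin, had 829 ± 233 and 2493 ± 648 RPM (SD, n = 3 each) for unanchored and anchored primers, and its entry holds 3 small nucleolar RNA genes. NPM1, the nucleolar chaperone nucleophosmin, had 224 ± 64.7 and 310.2 ± 86.6, IMP3 of the small-subunit processome had 106 ± 24.7 and 244 ± 46.1, and the helicase DDX21 had 191 ± 42.3 and 222 ± 48.4. With TMM the log2 fold changes were 0.49 for NCL, -0.57 for NPM1, 0.098 for IMP3 and -0.89 for DDX21. NPM1 and DDX21 thus changed direction between the scales. In A549, 25 of 37 measured factors were at least 2-fold lower than in HEK293T T12 and 0 were at least 2-fold higher, beside 35.7% and 25.8% of all genes, with a median log2 ratio of -1.52 against -0.33 for all 10144 genes. NCL was 5.86-fold lower in A549 (162 against 951 RPM), and 18S in the same pair was 1.27-fold higher. One library of each line stands behind these values.

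All 23 genes of the exosome and nuclear decay list were tested. Where edgeR with TMM called 1.35% of all genes, it called none of these 23 (median 0.17). Their examples were EXOSC1 and EXOSC6, subunits of the exosome core, with 15.3 ± 3.72 and 38.9 ± 12.8, and 15.7 ± 4.12 and 34.8 ± 3.69, RPM for unanchored and anchored primers (SD, n = 3 each). DIS3, its nuclease, had 16.8 ± 8.17 and 30.1 ± 4.08, and MTREX, the helicase that feeds it in the nucleus, had 55.2 ± 47.4 and 59.3 ± 10.02. The DIS3 and MTREX entries overlap other genes. With TMM the log2 fold changes were 0.23 for EXOSC1, -0.045 for EXOSC6, -0.17 for DIS3 and -0.84 for MTREX. In A549, 9 of 20 measured genes were below the HEK293T level by 2-fold or more and 4 were above it, where 35.7% and 25.8% of all genes were. On the scale of library totals the edgeR test called 7 of the polymerase I list, 18 of the processing list and 5 of the decay list, all higher with an anchor except the processing factor NIP7, beside 20.9% of all genes; NIP7 was named after its values were seen.

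Likeness to the 45S entry was measured as the Pearson correlation of log2(RPM + 1) over the 6 HEK293T libraries, among 6857 genes with a mean of at least 50 reads. Among the closest were LRIF1, EIF1AD, CFAP20 and STX18 (0.99 each), all protein-coding, and these 4 had their lowest value with T30 and their highest with T18VNN. The 45S entry had the same lowest and highest library, so this order comes with the choice of genes and is no separate result. Reads of EIF1AD and STX18 can be shared with overlapping genes. LRIF1, for example, ran from an RPM of 1.42 with T30 to 8.79 with T18VNN, and CFAP20 from 2.79 to 6.25. The points share the library total, and the median correlation over all 6857 genes was 0.642. Within the unit the correlation of 45S was 0.97 with 28S and 0.88 with 18S, and between 18S and 28S it was 0.74; 45S holds the reads of both.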

How the data were processed

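Total RNA of HEK293T and A549 cells was sequenced after oligo(dT)-primed CLT-seq. The authors deposited read counts per RefSeq transcript entry. Per the submitters' processing notes, cutadapt 2.10, Trimmomatic 0.39, HISAT2 2.2.1 and SAMtools were used with GRCh37/hg19; strand use and the handling of multiple matches are not given in the sources used here. The deposited tables also hold a signal, the count per 1000000 of a library total (RPM in the text), and FPKM, which per the file headers divides further by transcript size. The library total was recovered as count divided by that signal and gave 1 value per library; what it counts is not stated. Of 61177 entries, 60133 (98.3%) matched a RefSeq symbol and 1044 were left out. One entry was kept per gene, that with most reads over the 7 libraries.

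Groups came from sample titles. Anchored and unanchored primers (3 HEK293T libraries each) were set against each other with an exact two-sided permutation test (SciPy 1.17.1) and by edgeR 4.0.16 in R 4.3.3 (filterByExpr, TMM, quasi-likelihood test, BH adjustment over all genes, threshold 0.05). The edgeR fit was also run on simulated counts with planted changes larger than those of the rRNA entries. That run does not show whether changes of the size seen here would be called. The standard error is the log2 fold change divided by the square root of F. A549 and HEK293T T12 were compared without a test, on log2(RPM + 0.1) for genes with at least 20 reads in either library. Intervals are 95% Wilson intervals for shares, the same turned to odds for the 28S to 18S ratio, and exact binomial ones for folds between libraries; they and the limit of 3 reads cover counting error only, since PCR copies cannot be told from molecules here. Alternatives were gene reads as denominator, a log scale, DESeq2 1.42.0, library totals without TMM, no filter and leaving out libraries. The members and gene lists were chosen with earlier results of these data known. Named genes were the 4 rRNA entries, up to 4 genes with most reads per list (as none was called), and the 5 genes most like 45S, of which 1 is not reported here. Gene body coverage and poly(T) lengths were not used here, since neither is given per gene.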

Additional observations from a re-analysis of the deposited data

Results flagged for a closer look

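In 2 of the 9 measures, 1 of the 6 HEK293T libraries stood well away from the other 5. Chance alone does this in about 1 in 20 groups of like, unrelated samples. The 6 libraries have different primers and the measures share reads, so that rate does not apply here and no conclusion is drawn from it. The 18S share was 161.391 RPM with T30, against 221 to 256 with the other 5 primers. T30 was the lowest of the 6 libraries in RPM for 59.8% of all genes tested, so a low value there is not particular to 18S. Relative to gene reads, T30 was the highest of the 6 for 18S. The 5.8S share was 0.390953 RPM with T18, which is 10 reads, against 0 to 2 reads in the other 5 libraries.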

How the results depend on the processing

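No paired analysis was possible because each primer had 1 library with gene counts and the numbered replicates, HEK293T T12 and A549 T12, had counts for replicate 1 and replicate 2 respectively. Of 121 recomputed values, 10 changed direction, 12 others moved without doing so or had another count, and 1 passed the threshold; the causes were not tested. The permutation tests cannot pass 0.05 (smallest p 0.1, or 0.2 with a library left out), so their p-values say nothing about stability. Relative to 1000000 gene reads, the anchored minus unanchored difference turned to -448 for 45S and -494 for 18S, and A549 over HEK293T T12 became 1.51 for 45S, 1.63 for 18S and 1.23 for 28S, the last a change of direction. Against the median of the 6 HEK293T libraries these ratios were 1.08 for 45S and 0.888 for 28S. With library totals in edgeR the log2 fold changes turned to 0.50 (45S), 0.22 (18S) and 0.95 (28S); DESeq2 called 18S at -0.92. With library totals 7 polymerase I, 18 processing, 5 decay, 3 untailed, 1 A549 marker and 2 HEK293T marker genes were called, against 0 in each list with TMM, and with DESeq2 4 processing genes (BOP1, DDX21, NOP2 and NIP7, named after their values were seen) and 1 untailed RNA (RNY5). All genes called numbered 147 of 10887 with TMM, 2273 of 10887 with library totals, 583 of 12373 with DESeq2 and 556 of 16405 without a filter. With 1 library left out they numbered 46 to 111, of 11365 to 11594 tested. Leaving out 1 library at a time moved the differences in RPM over 70.9 to 154.8 for 45S, 10.7 to 50.4 for 18S, -0.0835 to 0.112 for 5.8S (positive without T18), 43.1 to 124 for 28S and 0.120 to 0.870 for the spacers. It moved the edgeR log2 fold changes over -0.87 to -0.39 (45S), -1.01 to -0.80 (18S) and -0.61 to 0.22 (28S, 0.22 without T18V and 0.0045 without T18VN). The differences in the 28S to 18S ratio ran from 0.140 to 0.452, and those in percent of 45S reads from -15.7 to -5.67 for 18S, 5.66 to 15.6 for 28S and -0.00718 (without T30) to 0.179 for the spacers. Adding rows of the same symbol changed no value, since each entry has 1 row. Depth limits 5.8S and the spacers, with 10 reads or fewer and 34 or fewer.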
